A study of Mus musculus with 6 samples.

Results

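The regulators examined here are 9 mouse genes for transcription factors and coactivators of smooth muscle: Myocd, Mkl1, Mkl2, Srf, Mef2a, Mef2c, Mef2d, Gata6 and Foxf1. A probe set, the group of short probes that reports 1 transcript on the chip, was taken as a member when the platform annotation paired it with 1 of these symbols and no other gene. Mkl1 and Mkl2 are listed there as Mrtfa and Mrtfb. This gave 27 of the 45037 probe sets that were not chip controls, and all 9 genes had at least 1. All 27 lay above the level filter, so all were among the 27027 probe sets tested. Arteries of Notch3-/- mice, in 3 pools, were set against those of Notch3+/+ mice, also in 3 pools, all at 4 weeks of age (P28). The vessel sampled was the caudal artery, the main artery of the tail. Each Notch3-/- pool held arteries of 4 mice, and the Notch3+/+ pools held 4, 3 and 3 mice in replicates 1 to 3. The labels give neither strain nor sex, and they do not describe the Notch3 allele or say whether it is restricted to a cell type. The values are log2 expression levels made with RMA. A change is the Notch3-/- mean minus the Notch3+/+ mean on that scale, p-values come from limma and adjusted p-values cover all 27027 probe sets.

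Smooth muscle genes are switched on largely by serum response factor (SRF), a MADS-box protein that binds the CArG box, a short A/T-rich DNA element. SRF is weak alone and relies on coactivators: myocardin, found in smooth and cardiac muscle, and the related MRTFs (Mkl1 and Mkl2), which actin monomers hold in the cytoplasm until actin polymerises. MEF2 proteins are also MADS-box factors, bind a different A/T-rich element and are held in check by class IIa histone deacetylases, while GATA6 and the forkhead factor FOXF1 act beside SRF in smooth muscle. Arterial smooth muscle cells carry the receptor Notch3, and the comparison bears on how transcripts of the artery differ in its absence.

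Both Notch3 probe sets were lower in every Notch3-/- pool, at 5.87 to 6.51 against 9.94 to 10.09 in Notch3+/+ pools on the brighter one, where the adjusted p from limma was 0.000529. Whether either probe set lies in a deleted part is unknown here. Smooth muscle markers were abundant in all pools, with a mean log2 level over 8 markers of 11.29 to 11.40 for Notch3-/- pools against 11.22 to 11.55 for Notch3+/+ pools. Notch3-/- replicate 2 lay apart from the other arrays on the first principal component, at 39.5 against -17.1 to 5.85. Values without it are given for Myocd, Mef2c and some of the named pathway genes, not for every gene that it moved. The labels name no batch, and 3 pools a genotype limit the precision of every value.

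Mef2c was the regulator with the largest differences. All 5 of its probe sets were lower in Notch3-/- arteries, by 0.49 to 0.72 on the log2 scale (1.40- to 1.65-fold), but with limma's adjusted p between 0.0759 and 0.251 none passed the threshold of 0.05. Myocd was lower by 0.39 and 0.57 on its 2 probe sets, also short of the threshold. The other 7 genes, among them Srf itself and both MRTFs, had changes between -0.38 and 0.15. With limma 0 of the 27 probe sets passed the adjusted threshold, which 0.252% of all probe sets tested did. An unadjusted p under 0.05 was found for 7 of the 27, against 11.4% of all probe sets, and all 7 were lower in Notch3-/- arteries, against 4.85% of all. Of these 7, 5 belong to Mef2c and measure 1 gene, so they are not separate results. At 1 probe set per gene, 2 of 9 genes (Myocd and Mef2c) had an unadjusted p under 0.05, against 11.9% of the 12732 genes tested, and both were lower, against 4.81% of genes. The same 2 of 9 showed no overlap between genotypes, as did 17.3% of genes. At an adjusted threshold of 0.10, 2 of the 27 probe sets would pass, both of Mef2c, against 0.525% of all. Of the 27 changes 20 were below 0, against 52.6% of all. The median change was -0.08 over the 27 probe sets and -0.01 over all probe sets tested.

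**Figure D1:**
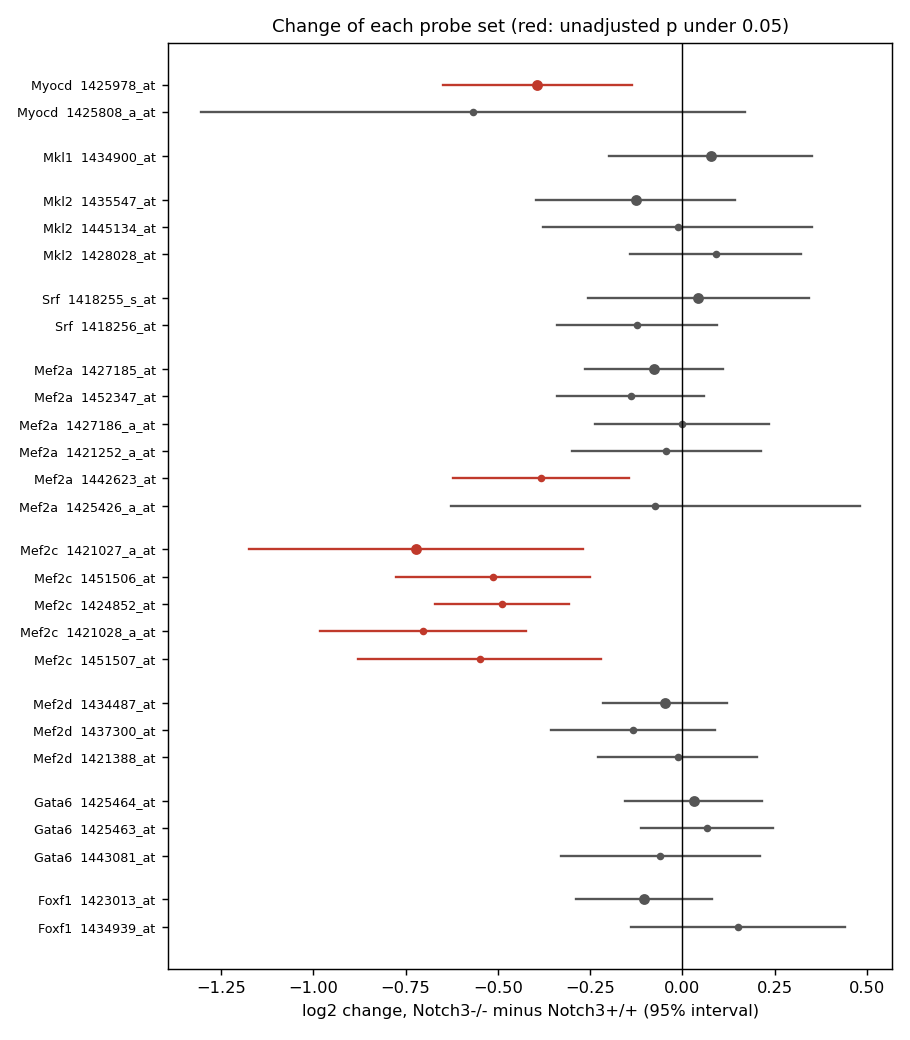
Log2 change (Notch3-/- minus Notch3+/+, horizontal axis) of each of the 27 probe sets with its 95% interval, grouped by gene down the page, with a larger point for the probe set with the gene's highest mean. The intervals of the 5 Mef2c probe sets lie below 0, as do those of 1 Myocd and 1 Mef2a probe set, and the other 20 include 0.

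Myocd encodes myocardin, the SRF coactivator that is restricted to muscle. On the brighter probe set (1425978_at) its log2 level was 7.31, 7.58 and 7.54 in Notch3-/- pools, against 7.81, 7.77 and 8.03 in Notch3+/+ pools. Every Notch3-/- pool lay below every Notch3+/+ pool, as was the case for 7.75% of all probe sets tested, and the gap between the groups was 0.19. The difference was -0.39 (SE 0.11, 95% interval -0.65 to -0.14), with an unadjusted p of 0.00784 and an adjusted p of 0.265 in limma. The dimmer probe set (1425808_a_at) read 5.57, 4.40 and 5.63 in Notch3-/- pools, against 6.01, 5.54 and 5.75 in Notch3+/+ pools. Here the groups overlapped, and the low value of Notch3-/- replicate 2 made up most of the difference. Its change was -0.57 (SE 0.32, adjusted p = 0.543 in limma) with all pools and -0.17 without Notch3-/- replicate 2. The brighter probe set did not follow that pool: its change was -0.45 without Notch3-/- replicate 2.

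Srf encodes the DNA-binding partner of these coactivators. Its brighter probe set (1418255_s_at), whose suffix marks probes that can match transcripts of more than 1 gene, read 7.80, 8.22 and 7.91 in Notch3-/- pools and 7.91, 7.81 and 8.08 in Notch3+/+ pools. The other (1418256_at) read 6.09, 5.83 and 5.89 in Notch3-/- pools and 6.0, 6.07 and 6.11 in Notch3+/+ pools. The genotypes overlapped on both, and the changes were 0.04 (95% interval -0.26 to 0.34) and -0.12 (-0.34 to 0.09), with adjusted p of 0.919 and 0.638 in limma. These intervals reach from a level 21.0% lower to one 26.8% higher in Notch3-/- arteries. Srf lies on chromosome 17, as does Notch3.

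Srf is a known target of its own protein, and the RefSeq window upstream of its start shows the element the factor reads. The 250 bases before the annotated start (GRCm38.p6, from RefSeq) hold 2 CArG boxes, printed in capitals, at 82 to 73 and 62 to 53 bases upstream. The element is palindromic in form, so both strands were searched and each place counted once. It was found in 1.47% of the 32851 RefSeq windows of 250 bases, and a match is a description of the sequence, not of binding in these arteries.
Srf, chr17:46556163-46556412, minus strand: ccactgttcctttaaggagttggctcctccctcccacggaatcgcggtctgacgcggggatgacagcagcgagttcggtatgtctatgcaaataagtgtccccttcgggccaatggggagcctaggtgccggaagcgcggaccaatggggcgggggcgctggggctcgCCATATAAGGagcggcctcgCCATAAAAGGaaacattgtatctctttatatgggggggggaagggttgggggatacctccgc

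The MRTF genes encode the coactivators that carry actin signals to SRF. Mkl1 read 7.01, 6.64 and 6.94 in Notch3-/- pools, against 6.71, 6.73 and 6.92 in Notch3+/+ pools, which overlapped. Its change was 0.08 (95% interval -0.20 to 0.35, adjusted p = 0.827 in limma). Mkl2, on its brightest probe set, read 9.35, 9.70 and 9.60 in Notch3-/- pools, against 9.53, 9.73 and 9.77 in Notch3+/+ pools, again overlapping. The 3 Mkl2 probe sets had changes between -0.13 and 0.09 and adjusted p of 0.696 or more. Their 95% intervals together ran from -0.40 to 0.35.

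Myocd was also set against its partners within each pool. The log2 difference Myocd minus Srf was -0.64 to -0.37 in Notch3-/- pools and -0.10 to -0.04 in Notch3+/+ pools. Myocd minus Mkl1 shifted by -0.47 and Myocd minus Mkl2 by -0.27 between the genotypes, also without overlap. Without Notch3-/- replicate 1 the shift of Myocd minus Mkl1 was -0.31. An exact two-sided permutation test gave p = 0.1 for each of these 3 differences, the smallest that 3 against 3 pools allow, and 0.1 after adjustment over the 5 pairs compared (2 Mef2 pairs are given below). The pairs were chosen after the values were seen. Pools that do not overlap fix this p and its adjusted value in advance, so the test adds nothing to the ranges given.

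**Figure D2:**
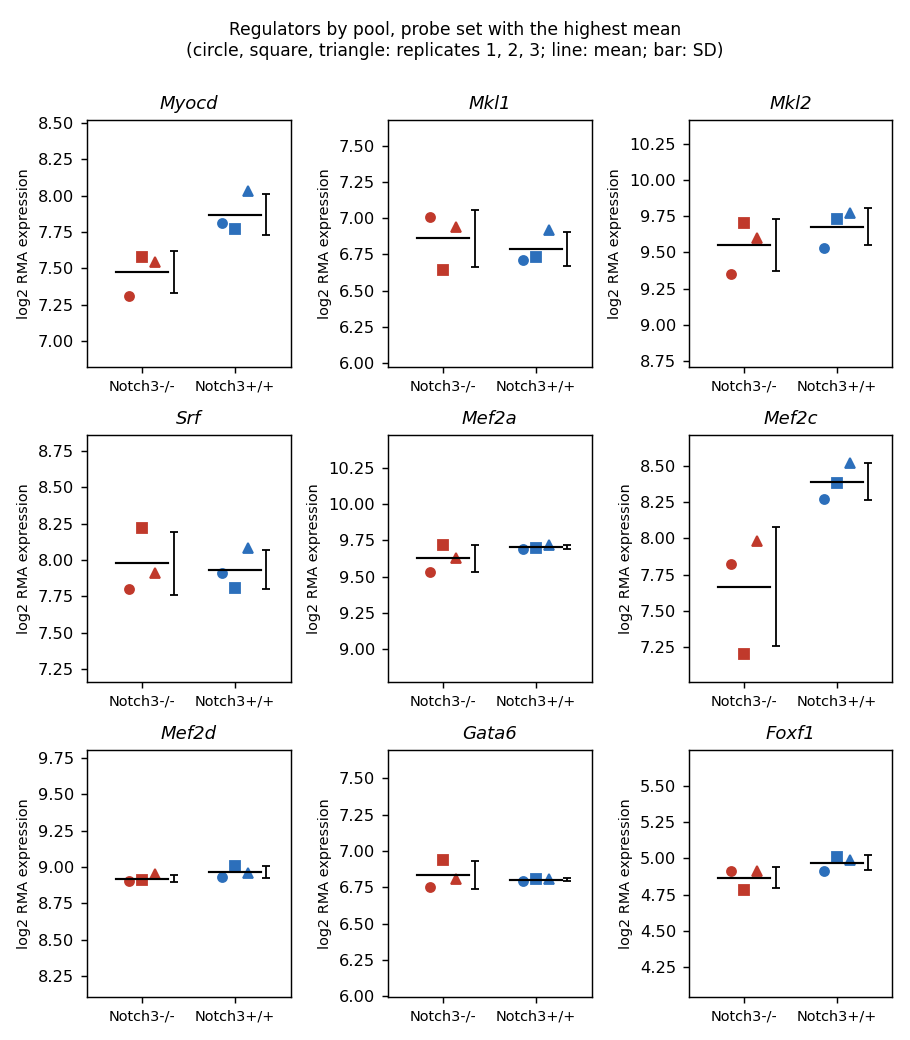
Log2 RMA expression of the 9 regulators by pool, each on its probe set with the highest mean (Notch3-/- left in red, Notch3+/+ right in blue; line, mean; bar, SD; n = 3 pools each), all axes spanning the same number of log2 units. Only for Myocd and Mef2c do the pools of the genotypes not overlap.

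Mef2c encodes the MEF2 factor best known from heart, skeletal muscle and blood vessel development, and it is also used by endothelium and macrophages. On the brightest probe set (1421027_a_at) its log2 level was 7.82, 7.20 and 7.98 in Notch3-/- pools, against 8.27, 8.38 and 8.52 in Notch3+/+ pools. On 1421028_a_at it was 7.16, 6.94 and 7.39 in Notch3-/- pools, against 7.81, 7.86 and 7.93 in Notch3+/+ pools. Probe set 1424852_at varied least, with 7.52, 7.53 and 7.50 in Notch3-/- pools, against 8.09, 7.92 and 8.01 in Notch3+/+ pools. In all 5 probe sets every Notch3-/- pool lay below every Notch3+/+ pool, by a gap of 0.09 to 0.42. That order was found for 7.75% of all probe sets tested. The 5 probe sets measure the same gene in the same pools, so they are not separate results.

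Probe set 1451506_at read 7.54, 7.33 and 7.65 in Notch3-/- pools and 7.90, 7.99 and 8.17 in Notch3+/+ pools, and 1451507_at read 6.78, 6.68 and 7.10 in Notch3-/- pools and 7.19, 7.45 and 7.57 in Notch3+/+ pools. Notch3-/- replicate 2 was the lowest pool on 4 of the 5 probe sets and the highest of the Notch3-/- pools on 1424852_at. The smallest p was that of 1424852_at, at -0.49 (SE 0.08, 95% interval -0.67 to -0.31, unadjusted p = 0.000304, adjusted p = 0.0759 in limma). It was followed by 1421028_a_at, at -0.70 (SE 0.12, adjusted p = 0.0948), while the brightest probe set had -0.72 (SE 0.19, adjusted p = 0.251). Averaged over its 5 probe sets Mef2c differed by -0.60 (SE 0.11, adjusted p = 0.0759 over 12732 genes in limma). Without Notch3-/- replicate 2 the changes were -0.59 to -0.43. With arrays weighted by their quality, 3 of the 5 probe sets passed (adjusted p = 0.0133, 0.0211 and 0.0413 in limma), a setting under which 978 probe sets passed in place of 68.

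**Figure D3:**
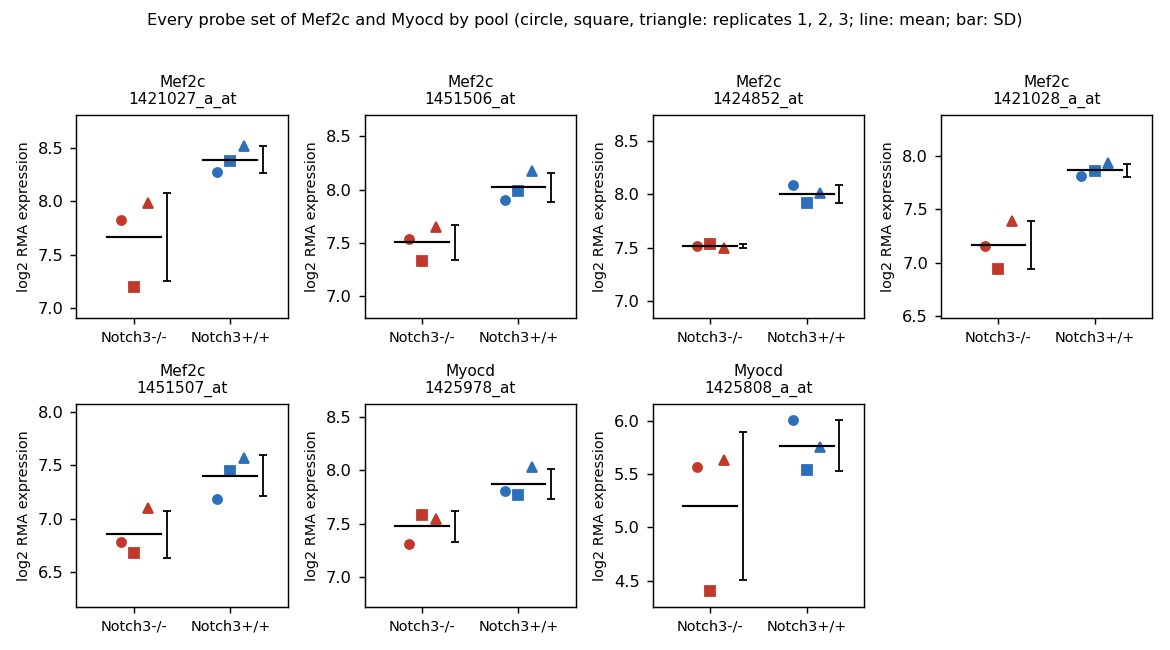
Log2 RMA expression of the 5 Mef2c and the 2 Myocd probe sets by pool (Notch3-/- left in red, Notch3+/+ right in blue; circle, square and triangle, replicates 1 to 3; line, mean; bar, SD). The genotypes do not overlap in any Mef2c panel, and Notch3-/- replicate 2 stands lowest on the dimmer Myocd probe set at 4.40.

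Several other cell types that use Mef2c are present in a dissected artery, and in bulk RNA fewer cells of a type and less RNA per cell cannot be told apart. Of 8 endothelial markers 7 were lower in Notch3-/- arteries, 4 of them at an unadjusted p under 0.05 and 0 past limma's adjusted threshold, and their mean log2 level was 8.54 to 8.75 in Notch3-/- pools, against 8.82 to 8.94 in Notch3+/+ pools. Of 9 skeletal muscle markers tested 8 were lower, with overlapping means of 5.87 to 6.91 in Notch3-/- pools, against 6.49 to 6.81 in Notch3+/+ pools, and Notch3-/- replicate 2 at the low end. A further marker, Myh4, lay below the level filter. All 9 macrophage and leukocyte markers were higher, with means of 7.04 to 7.38 in Notch3-/- pools, against 6.28 to 7.01 in Notch3+/+ pools. Of the 3 probe sets of the complement gene C1qb, a macrophage marker, 1 that is not the brightest rose by 1.07 (adjusted p = 0.0227 in limma), a call that held without Notch3-/- replicate 1 but not without any of the other pools (adjusted p up to 0.169). Of 8 adventitial fibroblast markers 7 were higher, with means of 11.19 to 11.33 in Notch3-/- pools, against 10.92 to 11.10 in Notch3+/+ pools, and 1 of them, the dermatopontin gene Dpt, passed with 0.58 (adjusted p = 0.0499 in limma), a call lost whichever pool was left out (adjusted p of 0.0684 to 0.261). All 7 mast cell markers were higher, with overlapping means of 7.12 to 7.72 in Notch3-/- pools, against 6.26 to 7.29 in Notch3+/+ pools. Of 4 Schwann cell and nerve markers 3 were lower, with means of 6.74 to 6.80 in Notch3-/- pools, against 6.92 to 6.93 in Notch3+/+ pools, and of 5 adipocyte markers 4 were lower, with overlapping means. None of the macrophage, mast cell, Schwann cell or adipocyte markers passed in limma on its brightest probe set. An unadjusted p under 0.05 was found for 6 macrophage, 4 mast cell, 3 Schwann cell and 1 adipocyte marker. The same held for 4 fibroblast markers, all higher, and 2 skeletal muscle markers, both lower. The share of all genes at that level was 11.9%. The mean level of the smooth muscle markers overlapped, as given above. Of the 8 markers 2 did not overlap between genotypes, as was the case for 17.3% of all genes tested. Each Notch3-/- pool lay above each Notch3+/+ pool for Cnn1 (0.51) and below for Smtn (-0.58). Their adjusted p was 0.138 and 0.318 in limma. The part of these shifts in the Mef2c and Myocd values was not tested.

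RefSeq lists 3 start sites for Mef2c, and their upstream windows are shown because the 5 probe sets differed in the same direction. None of the 3 windows holds a CArG box, a MEF2 element (found in 2.92% of all windows of 250 bases) or TGGGAA, the core letters of the site bound by the Notch effector RBPJ (21.6% of all windows), on either strand. The absence of these letters from these windows says nothing about more distant sequence. The windows are printed without capitals.
Mef2c start 1, chr13:83503784-83504033, plus strand: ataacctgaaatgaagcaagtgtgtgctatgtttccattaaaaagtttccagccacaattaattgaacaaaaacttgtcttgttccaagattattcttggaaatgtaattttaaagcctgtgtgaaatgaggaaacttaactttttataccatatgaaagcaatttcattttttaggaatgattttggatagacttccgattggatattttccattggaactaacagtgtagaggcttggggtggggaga
Mef2c start 2, chr13:83523406-83523655, plus strand: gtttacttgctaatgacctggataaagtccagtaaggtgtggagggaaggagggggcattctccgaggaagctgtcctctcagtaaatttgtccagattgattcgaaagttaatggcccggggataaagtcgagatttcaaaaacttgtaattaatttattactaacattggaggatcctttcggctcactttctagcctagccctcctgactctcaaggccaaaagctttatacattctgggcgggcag
Mef2c start 3, chr13:83573357-83573606, plus strand: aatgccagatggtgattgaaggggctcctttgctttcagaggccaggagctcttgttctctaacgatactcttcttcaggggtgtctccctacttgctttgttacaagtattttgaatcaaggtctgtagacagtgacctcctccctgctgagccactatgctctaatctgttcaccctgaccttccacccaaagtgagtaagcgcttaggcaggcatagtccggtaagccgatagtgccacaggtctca

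Upstream windows were examined for 6 of the 9 regulators: Mkl1, Mkl2, Srf, Mef2a, Mef2c and Mef2d. Windows on chromosome 18, where Gata6 lies, were left out of the search, so the Gata6 promoter was not examined. No window was available for Myocd and Foxf1. Besides the CArG boxes of Srf, the examined windows held 1 MEF2 element, at 165 to 156 bases before the third listed start of Mkl2. They also held TGGGAA before the second start of Mkl1 and the third of Mkl2.

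The other MEF2 genes had smaller changes than Mef2c on every probe set. Mef2a, the family member with 6 probe sets, read 9.53, 9.72 and 9.63 in Notch3-/- pools, against 9.69, 9.70 and 9.72 in Notch3+/+ pools, on its brightest probe set, which overlapped. Its change there was -0.08 (95% interval -0.26 to 0.11, adjusted p = 0.730 in limma). Of the other 5, probe set 1442623_at stood out with 6.33, 6.14 and 6.42 in Notch3-/- pools, against 6.80, 6.64 and 6.60 in Notch3+/+ pools, a change of -0.38 (SE 0.10, unadjusted p = 0.00615, adjusted p = 0.248). The remaining 4 ran from -0.14 to 0.00, so the Mef2a probe sets disagreed. Mef2d read 8.90, 8.91 and 8.95 in Notch3-/- pools, against 8.93, 9.01 and 8.96 in Notch3+/+ pools, on its brightest probe set, with a change of -0.05 (95% interval -0.21 to 0.12). Its 3 probe sets ran from -0.13 to -0.01 with adjusted p of 0.627 or more.

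The log2 difference Mef2c minus Mef2a was -2.52 to -1.65 in Notch3-/- pools and -1.42 to -1.20 in Notch3+/+ pools, a shift of -0.65. Mef2c minus Mef2d was -1.71 to -0.97 in Notch3-/- pools and -0.66 to -0.44 in Notch3+/+ pools, a shift of -0.68. Without Notch3-/- replicate 2 these shifts were -0.37 and -0.45. Neither pair overlapped, and each had the smallest exact two-sided permutation p that 3 against 3 pools allow, 0.1, also after adjustment over the 5 pairs. As above, the lack of overlap fixes this p, so the test adds nothing to the ranges.

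Gata6 and Foxf1, the GATA and forkhead members, had changes between -0.10 and 0.15. Gata6 encodes a zinc finger factor of vascular smooth muscle and read 6.75, 6.94 and 6.81 in Notch3-/- pools, against 6.79, 6.81 and 6.81 in Notch3+/+ pools, on its brightest probe set. Its 3 probe sets had changes of 0.03, 0.07 and -0.06, with adjusted p of 0.757 or more in limma and no interval beyond -0.33 or 0.25. Foxf1, a forkhead factor of lateral mesoderm and its smooth muscle, was read by 2 dim probe sets. The brighter read 4.91, 4.78 and 4.91 in Notch3-/- pools, against 4.91, 5.01 and 4.99 in Notch3+/+ pools, and the other 4.66, 4.30 and 4.64 in Notch3-/- pools, against 4.53, 4.37 and 4.25 in Notch3+/+ pools. The Foxf1 changes were -0.10 and 0.15 with adjusted p of 0.646 and 0.669, so the 2 probe sets disagreed in sign. RMA compresses differences at such low levels.

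Among the SRF cofactors and the actin regulators upstream of the MRTFs, Fhl2 rose and the rest did not pass. Of 19 genes tested 1 rose and 0 fell, against 0.322% of all genes, and the list median was -0.01. Fhl2, a LIM-only protein that binds SRF, read 7.94 ± 0.08 in Notch3-/- and 7.32 ± 0.08 in Notch3+/+ pools (SD, n = 3 each), a rise of 0.63 (SE 0.08, adjusted p = 0.0418 in limma). This call was lost whichever pool was left out, with adjusted p of 0.0677 to 0.237. Csrp2, a LIM protein that bridges SRF and GATA factors, was 0.42 higher (adjusted p = 0.222), with each Notch3-/- pool above each Notch3+/+ pool. Prkg1, the cyclic GMP-dependent kinase, was at -0.18 and the ternary complex factor gene Elk3 at 0.18, both with adjusted p above 0.55. With 1 pool left out Elk3 was at 0.10 to 0.28, and Prkg1 was at -0.07 without Notch3+/+ replicate 3.

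Genes known to restrain myocardin or SRF had changes in both directions, and none passed. Of 15 tested, 0 passed in limma and 4 had an unadjusted p under 0.05, 2 higher and 2 lower, against 11.9% of all genes, with a median of -0.08. Klf4, a repressor of smooth muscle genes, read 10.13 ± 0.25 in Notch3-/- and 9.60 ± 0.27 in Notch3+/+ pools (SD, n = 3 each), a change of 0.54 with an adjusted p of 0.328 in limma. Foxo3, a forkhead factor, was at 0.26. The homeobox gene Msx2 was at -0.39 (adjusted p = 0.181) and the Krüppel-like factor gene Klf5 at -0.37 (adjusted p = 0.398). Without Notch3-/- replicate 2 Foxo3 was at 0.17 and Klf5 at -0.24.

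Among contractile and cytoskeletal SRF targets Des and Casq2 rose. Of 26 tested, 2 rose and 0 fell past the adjusted threshold in limma, against 0.322% of all genes. Changes were above 0 for 17 and below for 9, where 51.3% of all genes were below 0. The median was 0.04, against -0.003 over all genes. The desmin gene Des, whose protein forms intermediate filaments in muscle, rose by 2.01 (SE 0.15, adjusted p = 0.00327), and Casq2, for the calsequestrin that buffers calcium in the sarcoplasmic reticulum, rose by 1.62 (SE 0.09, adjusted p = 0.000958). Casq2 was dim, with a mean of 6.14 in Notch3-/- and 4.52 in Notch3+/+ pools. The visceral smooth muscle actin gene Actg2 was at 0.66 (adjusted p = 0.114) and the calponin gene Cnn1 at 0.51 (adjusted p = 0.138), and for both each Notch3-/- pool lay above each Notch3+/+ pool. An unadjusted p under 0.05 was found for 8 of the 26, 7 higher and 1 lower, against 11.9% of all genes. Of the 23 targets with a RefSeq window, Myl9, Vcl and Ldb3 held a CArG box in their 250 upstream bases, and Des and Casq2 did not. The box was found in 1.47% of all windows of 250 bases. The MEF2 element, found in 2.92% of all windows of 250 bases, was searched among these targets only for Casq2 and Vcl, not for Des. The Vcl window held none, and a match describes the sequence, not binding in these arteries. The Casq2 window held 1 at 69 to 60 bases before its start, in capitals in the 50 bases shown here from GRCm38.p6.
Casq2, chr3:102086326-102086375, plus strand: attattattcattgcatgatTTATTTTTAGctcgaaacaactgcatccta

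The immediate early and growth-related SRF targets, the group linked to ternary complex factors and MRTFs, included genes that varied widely between pools. Of 16 tested, 0 passed in limma on their brightest probe set, 3 had an unadjusted p under 0.05, against 11.9% of all genes, and the median was 0.06. Ankrd1, a stretch-responsive ankyrin repeat protein, was at 1.76 (SE 0.25, adjusted p = 0.0570), from a dim mean of 4.13 in Notch3+/+ pools. It rose on the other of its 2 probe sets, which passed with 1.88 (adjusted p = 0.0410 in limma). The brightest probe set passed without Notch3-/- replicate 1 (2.01, adjusted p = 0.0363), and the call on the other was lost without Notch3-/- replicate 3 or any 1 of the Notch3+/+ pools (adjusted p of 0.0991 to 0.256). The CCN gene Ccn2 was at 0.77, with SDs of 0.13 among Notch3-/- and 0.67 among Notch3+/+ pools, and Fos at 0.87, with SDs of 0.58 among Notch3-/- and 0.70 among Notch3+/+ pools. Ccn2 depended on 1 library: without Notch3+/+ replicate 1 it was at 1.15 and passed (adjusted p = 0.0319 in limma). Fos was at 0.55 without Notch3-/- replicate 3, and its Notch3+/+ pools read 7.40, 6.19 and 6.19 in replicates 1 to 3. The thrombospondin gene Thbs1 was at -0.59 with all pools and -0.34 without Notch3-/- replicate 2. The mean log2 level of the list was 8.39 to 8.42 in Notch3-/- pools and 7.95 to 8.52 in Notch3+/+ pools, which overlapped. The 8.52 was that of Notch3+/+ replicate 1, while Notch3+/+ replicates 2 and 3 were at 7.95 and 7.99.

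Partners and kinases of MEF2 did not pass either. Of 16 tested, 0 passed in limma, 1 was higher and 2 lower at an unadjusted p under 0.05, against 11.9% of all genes, and the median was -0.05. Akap6, a scaffold that anchors protein kinase A at the nuclear envelope of muscle cells, was at -0.43 (adjusted p = 0.240), and the calcium/calmodulin kinase gene Camk2g at -0.29 (adjusted p = 0.373). Ncoa2, a coactivator gene of the p160 family, was at 0.24, although its 4 probe sets ran from -0.27 to 0.24. The class IIa deacetylase gene Hdac5, whose protein binds and silences MEF2, was at -0.32 (adjusted p = 0.466) and at -0.21 without Notch3-/- replicate 2, and Hdac9 lay below the level filter.

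Of 22 other transcription factors of vascular smooth muscle and its progenitors, 1 fell and 0 rose past the adjusted threshold in limma, against 0.322% of all genes. Tbx2, a T-box repressor, read 4.40 ± 0.14 in Notch3-/- and 6.18 ± 0.08 in Notch3+/+ pools (SD, n = 3 each) and fell by 1.78 (SE 0.10, adjusted p = 0.00101). The forkhead gene Foxc1 was at -0.35 (adjusted p = 0.242) on its brighter probe set and -0.78 on the other. Prrx2, a homeobox gene of mesenchyme, was at 0.43, and the mesenchymal factor gene Twist1 at 0.41, with adjusted p of 0.306 and 0.278. Without Notch3+/+ replicate 3 Prrx2 was at 0.29. Another 7 listed genes lay below the level filter, among them Gata4, Gata5 and Foxf2, relatives of Gata6 and Foxf1. The list median was -0.01.

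**Figure D4:**
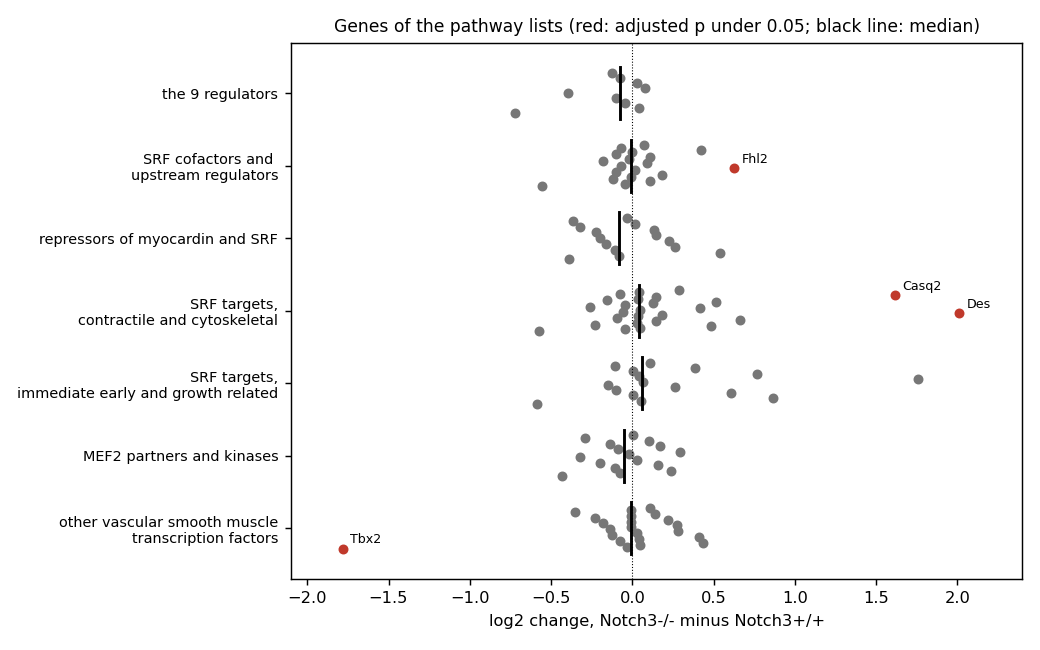
Log2 change (Notch3-/- minus Notch3+/+, horizontal axis) of each tested gene by its probe set with the highest mean, for the 9 regulators and the 6 pathway lists down the page (black line, list median; red, adjusted p under 0.05 in limma). Casq2, Des and Fhl2 lie to the right in red and Tbx2 to the left, while the list medians lie between -0.08 and 0.06.

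Profiles over the 6 pools were compared by the root mean square difference of log2 values, each gene centred on its own mean, over 12723 tested genes. The genes nearest to Myocd were Cck, Clybl, Cystm1, Rbm24 and Cadm1, with differences of 0.05 to 0.07, against a median of 0.25 over all genes compared. Their changes were -0.48 to -0.33, a direction that the choice by likeness over the same pools fixes. The genes nearest to Srf were Mnat1, Hoxc4, Foxp1, Brpf3 and Grhl2, with differences of 0.04 to 0.06, against a median of 0.19.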

How the data were processed

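RNA from pooled caudal arteries was extracted with Trizol and column-cleaned, and 2.5 µg of it was labelled and hybridised to Affymetrix MOE430 2.0 chips, per the labels' protocols and the series' design text. The authors deposited log2 expression values, 1 per probe set. The submitters' processing notes name RMA, which corrects background, normalizes between arrays and summarises probes. Its version is not given in the sources used here, no scanner files were used and the values carry no detection call.

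Of 45101 probe sets, 64 controls were left out, and 27027 of the rest had a mean at or above the 40th percentile (3.825). Names came from the platform annotation, updated by gene number to RefSeq (GRCm38.p6), which matched 34741 of 34945 probe sets with 1 gene. Genotypes were compared with limma 3.58.1 in R 4.3.3 (lmFit, eBayes, genotype as the only term, two-sided, Benjamini-Hochberg, threshold 0.05). The fit was tested on simulated data with independent noise for each probe set and no array set apart from the others. Of 50 probe sets changed 1.5-fold 50% passed, and of 50 changed 2-fold 72% passed. Of the unchanged probe sets 8 passed. A gene is represented by its probe set with the highest mean unless several are given. The labels call the pools biological replicates.

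The members, lists and tests were chosen with earlier results of these data known, and no p-value was adjusted over a list alone. Named are all members, the Notch3 check, each called gene and up to 4 genes of smallest p per pathway list, and the 5 nearest profiles of Myocd and of Srf. Myl9, Vcl and Ldb3 complete a count of motif matches, and Myh4, Hdac9, Gata4, Gata5 and Foxf2 were named after their values were seen, as were the markers Dpt, C1qb and Smtn. Differences between regulators and called marker probe sets with each pool left out were added after seeing the data. Settings varied were the level filter, variance model, normalization, centring, weights, replicate block, probe set per gene, threshold and omission of each pool.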

Additional observations from a re-analysis of the deposited data

How the results depend on the processing

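No regulator passed the adjusted threshold at 1 probe set per gene under any of the settings tried, and the log2 changes of Myocd, Mkl1, Mkl2, Mef2a, Mef2c and Mef2d kept their direction on that probe set under all of them. With array weights 3 regulator probe sets passed in place of 0, all of Mef2c, while 978 probe sets in all passed in place of 68. At an adjusted threshold of 0.10, 2 regulator probe sets passed, both of Mef2c, and 142 in all (0.525% of those tested). Leaving out 1 pool gave 13 to 62 probe sets in all and 0 of the regulators: 13 with Notch3+/+ replicate 2 omitted, 23 with Notch3+/+ replicate 3, 17 with Notch3-/- replicate 3 and 37 with Notch3-/- replicate 2. With fewer pools fewer probe sets can pass. The count of regulator probe sets at an unadjusted p under 0.05 was 7 to 10 over all settings, where the share over all probe sets was 7.04% to 21.5%. The 10 came with array weights, under which that share was 21.5%. With 1 pool left out the count was 7 or 8 and the share 7.04% to 13.8%.

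The change of Srf, 0.04 with all pools, was -0.04 over the mean of its probe sets and -0.0783 to 0.132 with 1 pool left out, below 0 without Notch3-/- replicate 2 (-0.0783) or Notch3+/+ replicate 2 (-0.0183). That of Gata6, 0.03, was -0.0233 to 0.0717 with 1 pool left out (-0.0233 without Notch3-/- replicate 2), and that of Foxf1, -0.10, was 0.0233 over the mean of its probe sets. With 1 pool left out Mkl1 ranged from 0.00 to 0.19, Mkl2 from -0.20 to -0.03 and Mef2a from -0.12 to -0.03. The cause was not tested.

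With the replicate number as a block, 57 probe sets passed in place of 68, 0 of them of the regulators, and the adjusted p of Fhl2 was 0.118. The numbers were not taken as pairs, since the labels give no pairing. Deviations of same-numbered pools from their group means correlated at 0.24, 0.05 and -0.07 across probe sets. For pools of different number the correlations were -0.17 to 0.14. Deviations from a mean of 3 pools depend on each other, so these values cannot decide whether pools were paired.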
